A study of Homo sapiens with 6 samples.

Results

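The genes described here are 10 members of the insulin and insulin-like growth factor (IGF) system. They comprise the binding proteins IGFBP2, IGFBP3, IGFBP4, IGFBP6 and IGFBP7, the receptors IGF1R, IGF2R and INSR, and the adaptors IRS1 and IRS2. They were picked by symbol from the 25442 genes of an expression table of YAPC cells, a human pancreatic ductal adenocarcinoma (PDA) line. All 10 had a mean of at least 1 FPKM (fragments counted per gene, divided by transcript length and by the mapped fragments of the library) and so were among the 12493 genes tested.

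The ligands IGF1, IGF2 and insulin act through receptor tyrosine kinases. IGF1R and INSR phosphorylate IRS1 and IRS2, and these recruit PI3K and thereby AKT, mTOR and the inhibition of FOXO transcription factors. IGF2R, also known as the cation-independent mannose-6-phosphate receptor, carries IGF2 to the lysosome. The secreted IGFBPs hold IGFs in the extracellular space and can keep them from IGF1R or release them after proteolysis. IGF signaling supports growth and survival in pancreatic tumor cells.

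The 3 iGLI2 libraries came from YAPC cells with the reverse tetracycline transactivator (rtta) and a human GLI2 cDNA in the doxycycline (Dox)-inducible vector pRetroX-Tight-Puro. The 3 iEV libraries came from YAPC-rtta cells with the same vector left empty. Both groups were kept in full growth media with Dox for 6 days, so Dox and rtta are shared by the groups and no library shows cells without Dox. GLI2 is a transcription factor of the Hedgehog pathway, and the comparison asks which transcripts differ once it is expressed. Whether the engineered lines were single clones, and whether the libraries of a group came from separate cultures, is not given in the sources used here. The p-values therefore measure only the spread between these libraries, which may be technical. In the library codes, replicates 1 and 2 of each group carry the digit 1 and replicate 3 the digit 2.

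GLI2 stood at 0.466, 0.412 and 0.344 FPKM in iEV replicates 1 to 3 and at 94.5, 207 and 195 FPKM in iGLI2 replicates 1 to 3. Each library matched its label, and iGLI2 replicate 1 had the lowest induced level. Over all genes tested, 1262 were higher and 1480 lower in iGLI2 cells (limma, adjusted p under 0.05), so that 46.0% of the calls were higher. Small RNA genes held 45.4 to 48.4% of the summed FPKM in iEV and 38.9 to 40.4% in iGLI2 libraries. With these genes left out and the libraries rescaled, 59.4% of the calls were higher and the median log2 fold change of all genes moved from -0.01 to 0.06. Of 8 epithelial and ductal markers, EPCAM, KRT7, KRT19, CDH1, SOX9 and MUC1 were measured above 1 FPKM, and KRT8 and KRT18 were listed at 0 in all 6 libraries. EPCAM rose from 405 ± 11.4 (SD, n = 3) FPKM in iEV to 523 ± 2.55 in iGLI2 cells and CDH1 from 53.2 ± 2.77 to 68.9 ± 3.88, while MUC1 fell from 21.7 ± 2.08 to 3.61 ± 0.283 FPKM (limma, adjusted p = 0.00709, 0.0169 and 0.0001315). KRT7 was at 870 ± 127 and 743 ± 131 FPKM and KRT19 at 621 ± 54.3 and 548 ± 28.7 FPKM, and neither was called. Of 8 fibroblast and stellate cell markers, COL1A1 alone passed the filter. It was called higher in iGLI2 cells (1.41 ± 0.127 against 2.69 ± 0.365 FPKM, limma, adjusted p = 0.011). The other 7 had means below 0.1 FPKM, DCN being listed at 0 throughout. A listed 0 was not read as absence, since epithelial cells use KRT8 and KRT18. Depth cannot be read from FPKM, so no counting error is given.

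IGFBP6 had the largest difference of the 10 genes, IGFBP4 was the only one called lower, and INSR was the only receptor called. The 250 bases before the annotated start of these 3 genes are therefore shown, 5′ to 3′ on the strand of the gene, as RefSeq gives them on GRCh38.p14. Capitals mark every match, on either strand, to CCACCCA (the last bases of the GLI consensus GACCACCCA), the forkhead motif GTAAACA, the GC box GGGCGG or the TATA box TATAAA. Positions are counted from the annotated start as 0. The windows are on a later build than the expression table, which uses hg19.
IGFBP6, chr12:53097417-53097666, plus strand: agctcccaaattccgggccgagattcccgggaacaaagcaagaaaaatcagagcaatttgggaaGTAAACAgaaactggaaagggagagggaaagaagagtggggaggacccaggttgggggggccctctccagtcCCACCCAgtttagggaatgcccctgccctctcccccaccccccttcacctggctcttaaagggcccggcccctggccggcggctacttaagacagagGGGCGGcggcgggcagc
IGFBP4, chr17:40443200-40443449, plus strand: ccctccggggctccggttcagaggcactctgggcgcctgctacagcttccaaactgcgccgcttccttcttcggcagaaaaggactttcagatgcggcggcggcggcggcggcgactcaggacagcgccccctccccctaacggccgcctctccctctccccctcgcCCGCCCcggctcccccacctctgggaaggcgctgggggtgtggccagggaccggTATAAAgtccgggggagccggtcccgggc
INSR, chr19:7294415-7294664, minus strand: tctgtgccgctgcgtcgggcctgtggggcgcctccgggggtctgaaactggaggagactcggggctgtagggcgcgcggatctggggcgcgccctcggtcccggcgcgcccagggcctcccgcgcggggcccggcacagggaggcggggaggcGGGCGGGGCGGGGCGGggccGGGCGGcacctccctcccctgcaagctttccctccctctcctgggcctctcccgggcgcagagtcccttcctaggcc

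IGFBP6 held CCACCCA at -114, GTAAACA at -186 and a GC box at -17. IGFBP4 held TATAAA at -29 and a GC box at -83. INSR held GC boxes at -97, -92, -87 and -77, the first 3 of them overlapping. The motifs were searched in windows of 300 bases (250 before and 50 from the start), of which RefSeq gave 11 for 9 of the 10 genes, IGFBP2 having 3. IGFBP7 had no entry. The full consensus GACCACCCA was in none of the 11 windows and in 0.236% of 35116 windows of all genes. CCACCCA was in 3 of the 11 windows (IGFBP2, IGFBP6 and IRS1) and in 9.19% of all windows. For IGFBP2 it was only in the window that starts at chr2:216659317, which held no GC box. GTAAACA was in 1 of the 11 (IGFBP6) and in 3.42% of all windows. The GC box was in 10 of the 11, among them windows of all 9 genes, and in 45.0% of all windows. TATAAA was in 1 of the 11 (IGFBP4) and in 11.5% of all windows. GC content was 61.7% for IGFBP6, 74.0% for IGFBP4 and 78.3% for INSR, beside a median of 58.7% over all windows. A match describes letters in the window and not a bound site.

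Among the 10 genes, IGFBP6 and INSR were higher and IGFBP4 was lower in iGLI2 cells, and 7 were not called. Thus 2 of 10 were called higher where the background was 10.1% of the genes tested, and 1 of 10 lower where it was 11.8%. These shares are near the background. The median log2 fold change was -0.09 over the 10 genes and -0.01 over all genes tested. With small RNA genes left out, 3 of the 10 were called higher beside a background of 14.7%, IGFBP7 being the gene added, and IGFBP4 was again called lower (limma, adjusted p = 0.00773). The 3 libraries of each group did not overlap for IGFBP6 and INSR in the higher direction (background 19.2%) and for IGFBP4, IRS1 and IRS2 in the lower (background 22.8%). With 3 libraries against 3, an exact permutation test of a single gene cannot go below p = 0.1, so the test that shares its variance estimate across genes was used.

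**Figure D1:**
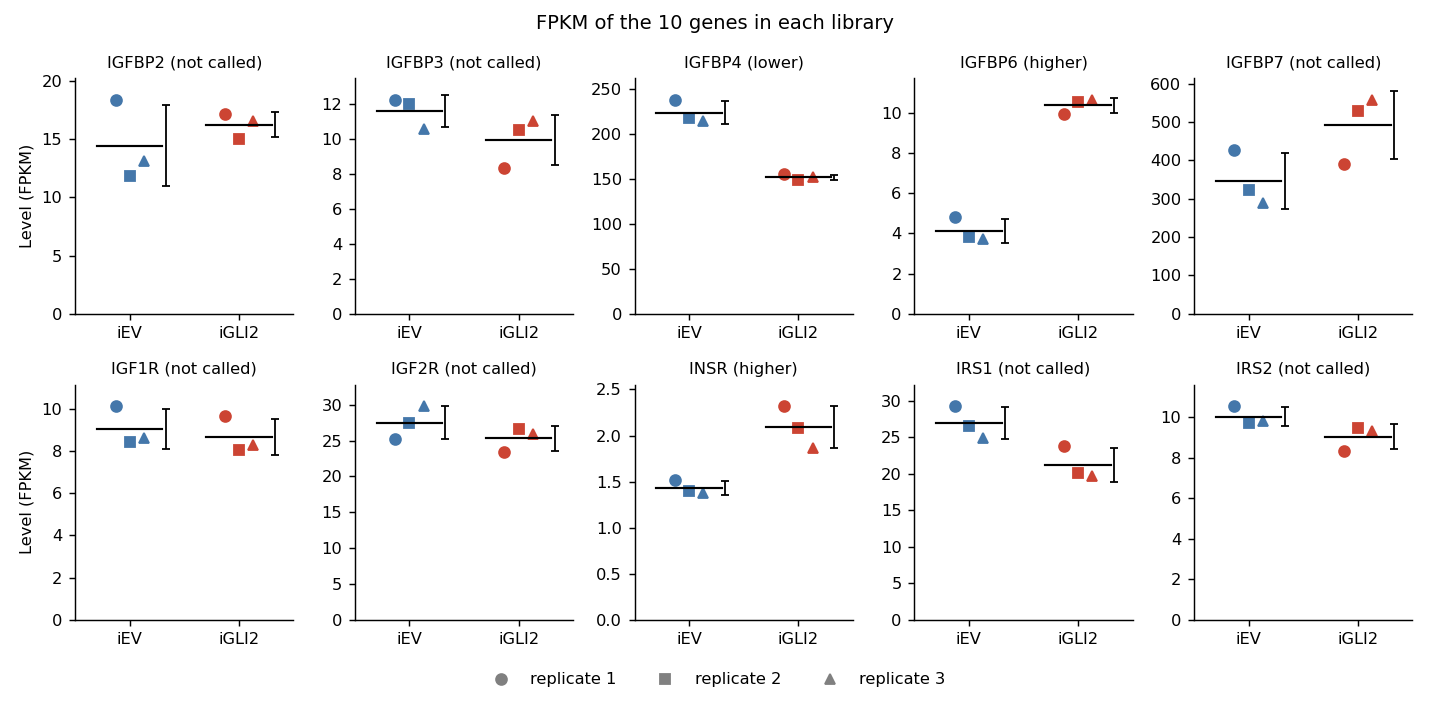
The vertical axes give FPKM from 0, with a scale of its own for each gene, for the 3 iEV (blue) and 3 iGLI2 (red) libraries; symbols mark replicates, horizontal lines the means and bars the SD. The groups are apart for IGFBP4, IGFBP6, INSR, IRS1 and IRS2, and the title of each panel gives the call by limma.

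IGFBP6, which binds IGF2 with preference over IGF1, lies at chr12:53491436-53496128 (hg19), where GENCODE annotates a protein-coding gene of 4 exons. It was at 4.80, 3.81 and 3.71 FPKM in iEV and at 9.98, 10.6 and 10.7 FPKM in iGLI2 replicates 1 to 3. Every iGLI2 library was above every iEV library, and the iGLI2 values lay close together. The mean rose from 4.11 ± 0.602 to 10.4 ± 0.375 FPKM (SD, n = 3), a ratio of 2.54. On the log2(FPKM + 1) scale the difference was 1.17 (SE 0.095, 95% interval 0.93 to 1.40, limma, adjusted p = 0.000953). It ranked 595 of 12493 by size, and it passed the threshold in all 16 alternatives that changed the data or the model. By mean level IGFBP6 was the least abundant of the 5 binding proteins in iEV cells and was next to IGFBP3 in iGLI2 cells. As the libraries are bulk RNA, a change in the number of cells that express a gene and a change in RNA per cell cannot be told apart.

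IGFBP4, chiefly an inhibitor of IGF action that is cleaved by the protease PAPPA, lies at chr17:38599676-38613982 and has 4 exons. Its level was 238, 218 and 215 FPKM in iEV and 155, 149 and 152 FPKM in iGLI2 replicates 1 to 3. All iGLI2 libraries were lower than all iEV libraries, and the spread in iGLI2 cells was narrow. The mean fell from 224 ± 12.7 to 152 ± 2.90 FPKM, a ratio of 0.680, and its log2 difference was -0.55 (SE 0.064, 95% interval -0.71 to -0.39, limma, adjusted p = 0.00304). Among the genes tested its level moved from rank 384 to rank 536. IGFBP4 passed the threshold in all 16 alternatives too, with log2 differences between -0.58 and -0.47.

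IGFBP7, a secreted protein with low affinity for IGFs that is also found in the vascular and tumor matrix, was the most abundant of the 10 genes. It was measured at 427, 323 and 288 FPKM in iEV and at 392, 528 and 558 FPKM in iGLI2 replicates 1 to 3. The groups overlapped, because iEV replicate 1 was above iGLI2 replicate 1. The means of 346 ± 72.2 and 493 ± 88.6 FPKM gave a log2 difference of 0.51 (SE 0.20, 95% interval 0.03 to 0.99), and the adjusted p of 0.120 by limma did not pass. After leaving out the small RNA genes the difference was 0.59 (limma, adjusted p = 0.0477), and without iGLI2 replicate 1 it was 0.67 (limma, adjusted p = 0.0475), both past the threshold. The table gives IGFBP7, IGFBP7-AS1 and POLR2B 1 common locus (chr4:57844806-58071465). On the GENCODE models 94 exonic bases of IGFBP7 lie opposite IGFBP7-AS1 exons and 260 opposite POLR2B exons. The library kit does not mark strand, so reads from these shared bases cannot be told apart. IGFBP7-AS1 was listed at 20.4, 15.4 and 12.1 FPKM in iEV and 21.9, 22.03 and 21.7 FPKM in iGLI2 libraries (limma, adjusted p = 0.119), and its part in the IGFBP7 value was not tested.

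IGFBP2 and IGFBP3, both high-affinity IGF carriers, were close to each other in level and neither was called. IGFBP2 (chr2:217498127-217529158) was at 18.4, 11.8 and 13.1 FPKM in iEV and at 17.1, 15.0 and 16.6 FPKM in iGLI2 replicates 1 to 3. Here iEV replicate 1 stood above all other libraries, and the remaining iEV libraries were below all iGLI2 libraries. The log2 difference was 0.18 (95% interval -0.21 to 0.57, limma, adjusted p = 0.470), and without iEV replicate 1 it was 0.36 (limma, adjusted p = 0.0560). IGFBP3 (chr7:45951844-45960871) was at 12.2, 12.0 and 10.6 FPKM in iEV and at 8.34, 10.5 and 11.02 FPKM in iGLI2 replicates 1 to 3. The groups overlapped, and the log2 difference of -0.21 had a 95% interval of -0.49 to 0.07 (limma, adjusted p = 0.260).

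Summed over the 5 binding proteins, the level was 700, 568 and 530 FPKM in iEV and 582, 713 and 748 FPKM in iGLI2 replicates 1 to 3. The sums overlapped, while their composition differed. IGFBP7 made up 61.0, 56.8 and 54.4% of the sum in iEV and 67.3, 74.0 and 74.6% in iGLI2 replicates 1 to 3. IGFBP4 made up 34.0, 38.3 and 40.5% in iEV and 26.6, 20.9 and 20.3% in iGLI2 replicates 1 to 3. Neither share overlapped between the groups, and both were farthest from iEV in iGLI2 replicates 2 and 3. As IGFBP7 and IGFBP4 made up most of the sum, their shares mirror each other and are a single observation. The IGFBP7 level itself overlapped between the groups and was not called. The remaining 3 binding proteins together were a small part of the sum, with IGFBP6 at 0.685% ± 0.014 in iEV and 1.54% ± 0.152 in iGLI2 cells. These shares come from FPKM and are free of the scaling between libraries.

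**Figure D2:**
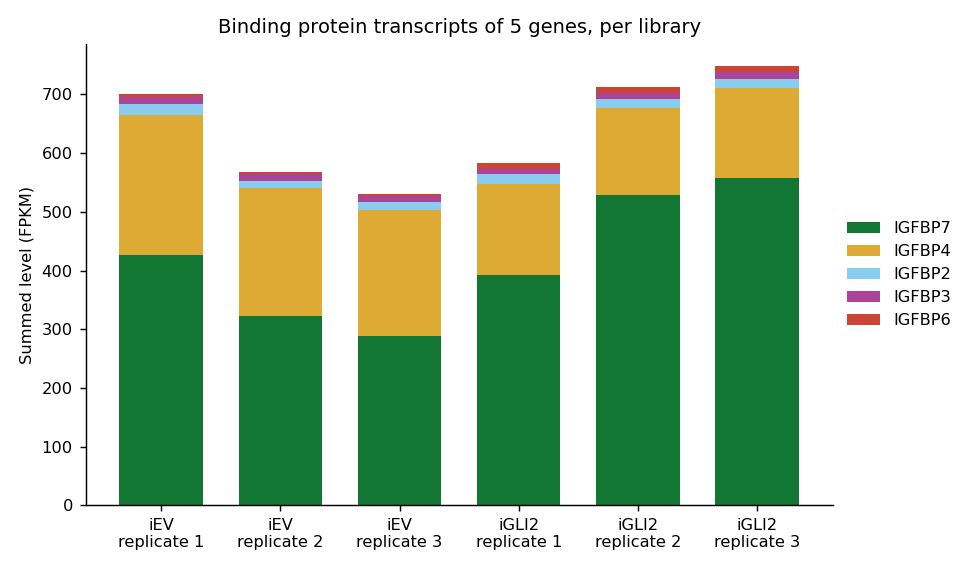
Bars give the summed FPKM of IGFBP2, IGFBP3, IGFBP4, IGFBP6 and IGFBP7 in each of the 6 libraries, from 0. The totals of the groups overlap, and the IGFBP4 section is smaller in every iGLI2 library, at 149 to 155 FPKM against 215 to 238 FPKM in iEV libraries.

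Of the receptors, INSR was higher in iGLI2 cells and IGF1R and IGF2R were not called. INSR, the insulin receptor (chr19:7112266-7294011, 22 exons), was the least abundant of the 10 genes. Its level was 1.52, 1.40 and 1.38 FPKM in iEV and 2.32, 2.08 and 1.87 FPKM in iGLI2 replicates 1 to 3. The groups did not overlap, and the highest value was in iGLI2 replicate 1. The mean went from 1.43 ± 0.079 to 2.09 ± 0.226 FPKM, a ratio of 1.46, and the log2(FPKM + 1) difference was 0.34 (SE 0.090, 95% interval 0.12 to 0.56, limma, adjusted p = 0.0428). At this level the added 1 FPKM makes the log2 difference smaller than that of the ratio. The INSR call was close to the threshold. It was lost on leaving out any library other than iGLI2 replicate 1, with adjusted p between 0.0398 and 0.125 over the 6 such fits (limma), and also with upper quartile scaling (limma, adjusted p = 0.0502), quantile normalization (limma, adjusted p = 0.118) and the digit of the library code as a block (limma, adjusted p = 0.0664).

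IGF1R, the receptor tyrosine kinase for IGF1 and IGF2 (chr15:99189095-99507759, 21 exons), was at 10.1, 8.40 and 8.61 FPKM in iEV and 9.63, 8.03 and 8.27 FPKM in iGLI2 replicates 1 to 3. The groups overlapped, and replicate 1 was the highest in each. The log2 difference was -0.06 (95% interval -0.30 to 0.18, limma, adjusted p = 0.710), and its sign turned when small RNA genes were left out (0.01) and without iEV replicate 1 (0.02). IGF2R (chr6:160390131-160527583, 48 exons) was at 25.2, 27.4 and 29.8 FPKM in iEV and 23.3, 26.7 and 26.0 FPKM in iGLI2 replicates 1 to 3. These values overlapped as well, with a log2 difference of -0.11 (95% interval -0.32 to 0.10, limma, adjusted p = 0.406). In order of level IGF2R was above IGF1R, and IGF1R above INSR, in every library.

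Of the adaptors, neither IRS1 nor IRS2 was called, although the libraries of the groups did not overlap for either. IRS1 (chr2:227596033-227663506) was at 29.3, 26.5 and 24.9 FPKM in iEV and at 23.8, 20.1 and 19.7 FPKM in iGLI2 replicates 1 to 3. The lowest iEV library was just above the highest iGLI2 library, which was replicate 1. The means were 26.9 ± 2.21 and 21.2 ± 2.27 FPKM, and the log2 difference of -0.33 (SE 0.099, 95% interval -0.57 to -0.09) had an adjusted p of 0.0620 by limma. Without iGLI2 replicate 1 it was -0.41 (limma, adjusted p = 0.0186), and after leaving out the small RNA genes it was -0.26 (limma, adjusted p = 0.183).

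IRS2 (chr13:110406184-110438914) was at 10.6, 9.73 and 9.81 FPKM in iEV and at 8.33, 9.46 and 9.30 FPKM in iGLI2 replicates 1 to 3. The gap between the groups was smaller than the spread within either. The means of 10.03 ± 0.454 and 9.03 ± 0.610 FPKM gave a log2 difference of -0.14 (95% interval -0.31 to 0.03, limma, adjusted p = 0.216). For these genes and for the others that were not called, the intervals leave room for differences of the sizes they span.

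**Figure D3:**
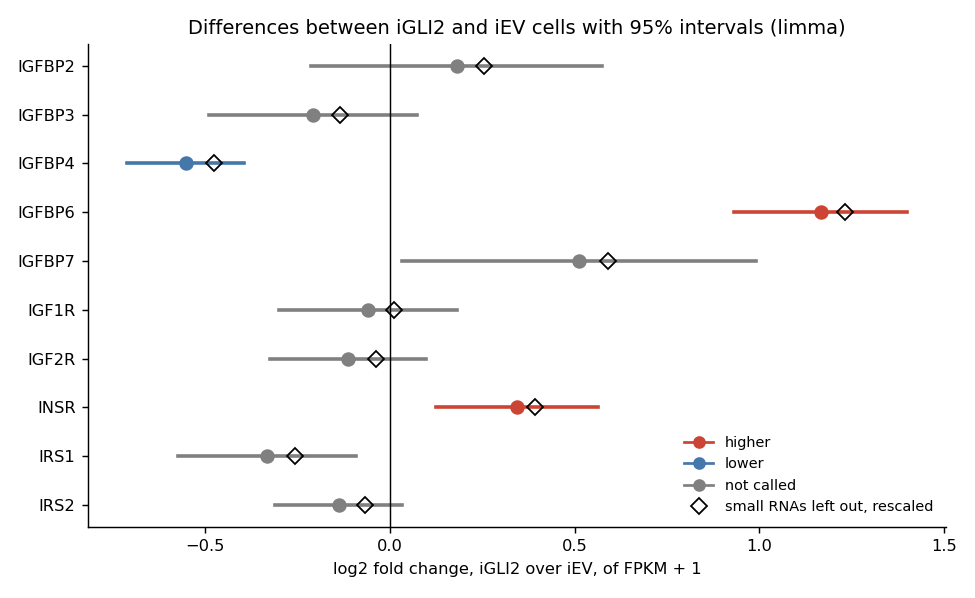
Points give the log2 fold change of FPKM + 1, iGLI2 over iEV, for each gene, lines the 95% interval by limma, and open diamonds the value with libraries rescaled on all genes but the small RNA genes. Only IGFBP6 and INSR (red) and IGFBP4 (blue) were called, and the rescaled values all lie to the right of the points, between -0.47 for IGFBP4 and 1.23 for IGFBP6.

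Ratios between genes of 1 library do not depend on how libraries were scaled to each other, and are given as a description. The ratio of INSR to IGF1R was 0.150, 0.166 and 0.160 in iEV and 0.241, 0.259 and 0.226 in iGLI2 replicates 1 to 3. These ranges did not overlap, and IGF1R transcripts were the more abundant per length in every library. The ratio of IRS1 to IRS2 was 2.78, 2.73 and 2.54 in iEV and 2.86, 2.12 and 2.12 in iGLI2 replicates 1 to 3. It overlapped because iGLI2 replicate 1 had the highest value of all. IGFBP6 relative to IGFBP4 was 0.018 ± 0.0016 in iEV and 0.069 ± 0.0036 in iGLI2 cells, and IGFBP4 relative to IGFBP7 was 0.659 ± 0.095 and 0.317 ± 0.068 (SD, n = 3). Neither of these ratios overlapped between the groups. For IGFBP6 over IGFBP4 this was fixed in advance, as every iGLI2 library was higher for IGFBP6 and lower for IGFBP4. The gap of INSR over IGF1R was fixed too, as any pairing of their values within a group leaves the groups apart. It restates the INSR difference and is no separate support for the INSR call. IGFBP4 over IGFBP7 restates the shares of the summed binding proteins, and its gap likewise followed from the levels of both genes.

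**Figure D4:**
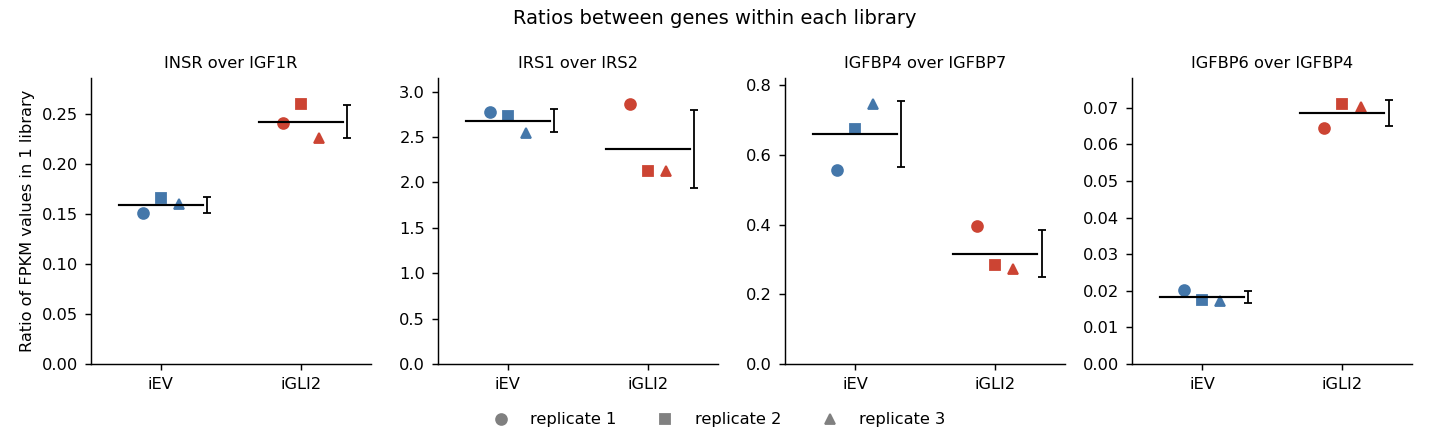
Vertical axes give the ratio of the FPKM values of a pair of genes in 1 library, from 0, for iEV (blue) and iGLI2 (red) replicates, with means as lines and the SD as bars. The groups are apart for INSR over IGF1R, IGFBP4 over IGFBP7 and IGFBP6 over IGFBP4, and overlap for IRS1 over IRS2. IGFBP6 over IGFBP4 had to be apart, as the groups did not overlap for either gene and differed in opposite directions. The other gaps were also fixed by the levels of the genes in each pair.

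The libraries were not alike across the 10 genes. In 9 of 10, the highest iEV value was in iEV replicate 1, IGF2R being the exception, whereas iEV replicate 1 held the highest value of its group for 39.4% of all genes tested. In iGLI2 cells replicate 1 was highest in 5 of 10 genes, beside 37.6% of all genes tested. Without iEV replicate 1 the log2 differences of IGFBP6 and IGFBP4 still passed the threshold, and that of INSR was 0.37 (limma, adjusted p = 0.0579).

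Among the other genes of the system, the ligands had low levels. IGF2, INS and INS-IGF2 form 1 merged entry, which was at 1.43 ± 0.051 FPKM in iEV and 1.87 ± 0.514 in iGLI2 cells (limma, adjusted p = 0.323). IGF1 was below 0.1 FPKM on average in both groups, and INSRR and IRS4 were listed at 0 throughout. Of 9 entries for other IGF system genes, 3 passed the filter on level and none was called at an adjusted p under 0.05. M6PR, the cation-dependent mannose-6-phosphate receptor that shares the lysosomal sorting role of IGF2R, stood at 60.5 ± 1.46 and 60.6 ± 5.62 FPKM. IGFBPL1, a protein with an IGFBP-like domain, stood at 1.34 ± 0.083 and 2.02 ± 0.319 FPKM (limma, adjusted p = 0.0531), and it was called higher with small RNA genes left out (limma, adjusted p = 0.0394).

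IGFBP2 and IGFBP3 each face another IGFBP gene, with the 3′ ends toward each other, and these partners were chosen after their values were seen. On chromosome 2 the gap between IGFBP2 and IGFBP5 is 7669 bases, and on chromosome 7 that between IGFBP1 and IGFBP3 is 18576 bases, as the table places them. IGFBP5 was at 0.0891 ± 0.034 FPKM in iEV and 1.09 ± 0.088 in iGLI2 cells, and IGFBP1 at 0.243 ± 0.211 and 1.68 ± 0.162 FPKM. Both had means under 1 FPKM over all libraries and were outside the test. In the fit without a filter on level both passed, IGFBP5 with a log2(FPKM + 1) difference of 0.94 (limma, adjusted p = 0.000432) and IGFBP1 with 1.12 (limma, adjusted p = 0.00448). Over all genes of that fit 1491 of 20035 were called higher. Since both genes were picked with these values known, the p-values describe them and are no independent support. The number of reads behind levels this low is unknown, and 487 exonic bases of IGFBP5 lie opposite DIRC3-AS1.

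Of the proteases that cleave IGFBPs and their inhibitors, 4 of 8 genes passed the filter. STC2, stanniocalcin 2, an inhibitor of the IGFBP4 protease PAPPA, fell from 135 ± 25.5 to 61.4 ± 12.6 FPKM, a log2 difference of -1.13 (limma, adjusted p = 0.0141). PAPPA itself was at 0.0081 FPKM on average in iEV and 0.01005 in iGLI2 cells. ADAM9, a membrane metalloprotease, was at 104 ± 3.48 and 84.9 ± 8.36 FPKM (limma, adjusted p = 0.0604), and HTRA1, a secreted serine protease, at 8.47 ± 1.80 and 7.99 ± 0.760 FPKM (limma, adjusted p = 0.797).

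Adaptors and inhibitors that bind the activated receptors moved in both directions. Of 14 tested of 16 listed, 3 were higher, 2 lower and 9 not called, with a median log2 difference of -0.11. Over all genes tested 10.1% were higher and 11.8% lower, with a median of -0.01. SH2B3, known as LNK and mostly a negative regulator of cytokine receptors, rose from 34.5 ± 1.64 to 78.3 ± 6.30 FPKM (log2 difference 1.16, limma, adjusted p = 0.000597). SH2B2, an adaptor of the insulin receptor known as APS, rose from 0.599 ± 0.122 to 3.50 ± 1.08 FPKM (log2 difference 1.47, limma, adjusted p = 0.00493), and it passed the filter on level only through the iGLI2 libraries. GRB10, an inhibitor of INSR and IGF1R, rose from 32.1 ± 10.7 to 65.7 ± 9.70 FPKM (log2 difference 1.05, limma, adjusted p = 0.0260). PTPN1, the phosphatase PTP1B that acts on the insulin receptor, fell from 45.3 ± 1.61 to 34.9 ± 0.180 FPKM (log2 difference -0.36, limma, adjusted p = 0.00709). SH2B1, an adaptor that enhances insulin receptor signaling, fell from 11.1 ± 0.130 to 9.18 ± 0.398 FPKM (limma, adjusted p = 0.0249), but with small RNA genes left out its adjusted p was 0.146. CAV1, the coat protein of caveolae, was at 68.4 ± 3.70 and 59.0 ± 21.2 FPKM, and GRB2, which links receptors to RAS, at 43.1 ± 0.755 and 38.1 ± 0.645 FPKM, and neither was called.

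In the PI3K-AKT-mTOR pathway the 29 genes reported were all tested, and 3 were higher, 1 lower and 25 not called, with a median log2 difference of -0.04, beside the same 10.1% higher and 11.8% lower over all genes tested. PIK3R1, which encodes the p85α regulatory subunit that binds phosphorylated IRS1 and IRS2, rose from 5.83 ± 0.373 to 21.3 ± 1.17 FPKM (log2 difference 1.71, limma, adjusted p = 0.0001315). The catalytic subunit genes PIK3CB and PIK3CD rose by less, with log2 differences of 0.32 (limma, adjusted p = 0.0393) and 0.29 (limma, adjusted p = 0.0464). PHLPP1, an AKT phosphatase, fell from 3.83 ± 0.071 to 3.11 ± 0.072 FPKM (limma, adjusted p = 0.0401). After leaving out the small RNA genes 5 of the 29 were higher and none lower, since PHLPP1 was no longer called (limma, adjusted p = 0.142). Over all genes of that fit 14.7% were higher, and 1221 of 12164 were lower. AKT1 was at 91.5 ± 1.66 and 88.9 ± 7.36 FPKM and RHEB, the GTPase that activates mTOR, at 87.4 ± 3.37 and 68.6 ± 10.3 FPKM, and neither was called.

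FOXO factors are held in the cytoplasm by AKT, and the list of these factors and textbook targets was split in direction. Of 14 tested of 15, 3 were higher, 4 lower and 7 not called, with a median log2 difference of 0.06, beside 10.1% higher and 11.8% lower over all genes tested. FOXO3 rose from 6.01 ± 0.572 to 9.78 ± 0.725 FPKM (log2 difference 0.62, limma, adjusted p = 0.00566). SESN3, a stress-induced inhibitor of mTOR signaling, rose from 1.01 ± 0.498 to 5.13 ± 1.42 FPKM (log2 difference 1.61, limma, adjusted p = 0.00601), and GADD45A, a growth arrest gene, from 22.3 ± 1.66 to 32.2 ± 5.29 FPKM (limma, adjusted p = 0.0460). CITED2, a transcriptional coregulator, fell from 35.3 ± 5.34 to 13.5 ± 1.29 FPKM (log2 difference -1.32, limma, adjusted p = 0.00152), and KLF6, a zinc finger transcription factor, from 47.7 ± 1.79 to 23.5 ± 5.63 FPKM (log2 difference -1.02, limma, adjusted p = 0.00853). CDKN1B, the cell cycle inhibitor p27, fell from 14.2 ± 1.47 to 10.4 ± 0.914 FPKM (limma, adjusted p = 0.0328), and PDK4, a kinase that shuts down pyruvate dehydrogenase, from 10.7 ± 0.771 to 7.51 ± 1.39 FPKM (limma, adjusted p = 0.0482). With small RNA genes left out the adjusted p by limma of CDKN1B was 0.0881 and that of PDK4 was 0.0996. In that fit 4 of the 14 were higher and 2 lower, so the split in direction depended on the scaling. Over all genes of that fit 14.7% were higher, and 1221 of 12164 were lower. TXNIP, an inhibitor of glucose uptake, was at 280 ± 74.8 and 299 ± 95.7 FPKM and CCNG2, a cyclin of arrested cells, at 10.04 ± 2.17 and 17.2 ± 7.16 FPKM, and neither was called.

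**Figure D5:**
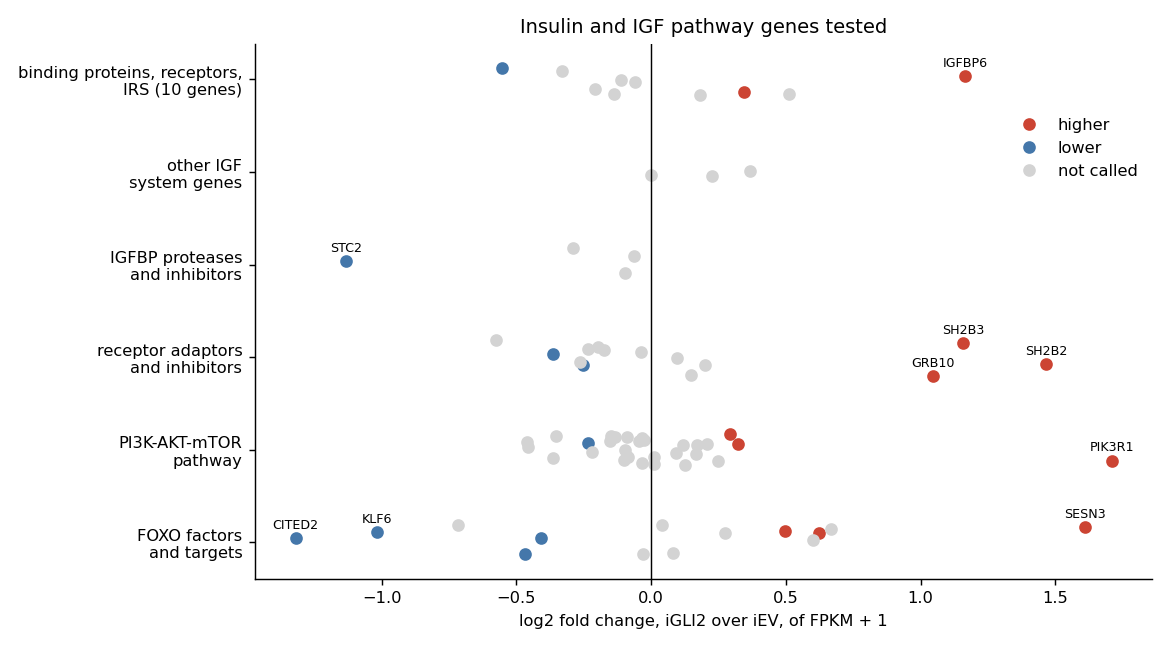
Each point is a tested gene, placed by its log2 fold change of FPKM + 1 (iGLI2 over iEV) in the row of its list, with vertical scatter that carries no value; red marks genes called higher, blue lower and grey not called by limma. PIK3R1 at 1.71, SESN3 at 1.61 and SH2B2 at 1.47 (under 1 FPKM in iEV cells) lie above IGFBP6 at 1.17, and CITED2 at -1.32 and STC2 at -1.13 below IGFBP4 at -0.55.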

How the data were processed

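RNA was measured in 6 YAPC libraries made with the Illumina TruSeq RNA kit. The authors aligned Trimmomatic-clipped reads by TopHat2 (genome build hg19) and ran Cuffdiff, version 2.1.1 per the submitters' processing notes, to make the deposited FPKM values. The table names no unit, which was inferred from its values, and the gene annotation and the scaling between libraries are not given in the sources used here. Every column of values was matched to a sample by its name. From 27024 entries, 1252 outside the primary chromosomes and 330 repeats of a name with a lower mean were left out. Merged names were kept as 1 entry, and locus starts were shifted to count from 1.

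Genes whose mean reached 1 FPKM entered the test, run by limma 3.58.1 (R 4.3.3) on log2(FPKM + 1), with an intensity trend, condition as the only term and Benjamini-Hochberg adjustment, two-sided, with a threshold of 0.05. The test was tried on simulated data with independent noise for each gene. Such data lack spread that genes of a library share, so they do not vouch for the p-values given here. Gene models came from GENCODE release 44 lifted to GRCh37.

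The 10 genes, the lists and the motifs were chosen with earlier results of these data known. Named genes are the 10, GLI2, and from each list up to 4 genes per direction with the smallest p and up to 2 that did not pass, by highest mean. Lists are described by counts and were not tested, and 1 gene of the PI3K-AKT-mTOR list is not reported here. Lists of acinar and endocrine markers (PRSS1 at 10.2 and 3.60 FPKM and the merged INS entry tested, neither called) completed the marker lists. PRSS1 had an adjusted p of 0.0564 by limma, and it was called lower with small RNA genes left out (limma, adjusted p = 0.0354).

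Replicate numbers were not taken as pairs, for reasons given with the alternatives. Alternatives were a pseudocount of 0.1, other filters, scalings, blocks and call rules, and each library left out in turn.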

Additional observations from a re-analysis of the deposited data

How the results depend on the processing

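IGFBP6 and IGFBP4 kept their direction and passed the threshold under all 16 alternatives that changed the data or the model, and INSR kept its direction in 15 and passed in 7 of them, the filter at 5 FPKM removing it. Of the 10 genes, 1 was called higher with that filter, with upper quartile scaling, with quantile normalization, with the code digit as a block, with a 2-fold requirement and at an adjusted p under 0.01. The 2-fold requirement left 0 called lower, beside 203 of 12493 over all genes. Leaving out 1 library gave 1 to 3 called higher and 1 to 2 called lower. Over all genes those fits gave 608 to 1855 higher and 615 to 1898 lower of 12493. For IGF1R the sign was reversed with small RNA genes left out, with and without the replicate block (0.012 in both), and without iEV replicate 1, the range over the libraries left out being -0.13 to 0.017, with no call in any. Deviations of libraries with the same number from their group means had correlations of 0.204, 0.0919 and 0.0276. Those of libraries with different numbers ran from -0.193 to 0.117 and were mostly negative. These values do not settle whether the numbers mark pairs. Not every library correlated best with its own number, iEV replicate 2 being closer to iGLI2 replicate 3, and the numbers were not taken as pairs. The replicate block gave 2 genes called lower, IRS1 being added (limma, adjusted p = 0.0145), and 3928 calls over all genes beside 2742. An alternative chosen after seeing the data, leaving out small RNA genes together with the replicate block, gave 3 higher and 2 lower and 4881 calls. All genes gave 1223 to 3753 calls with 1 library left out (1223 without iEV replicate 2, 1303 without iEV replicate 3, 1357 without iGLI2 replicate 2 and 1510 without iGLI2 replicate 3). They gave 527 calls with the 2-fold requirement and 1095 at an adjusted p under 0.01. Where a call or sign changed, the cause was not tested.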
